A study of Mus musculus with 6 samples.

Results

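The interferon response and antigen presentation genes of the mouse cerebellum were examined across 6 RNA-seq libraries. They comprise 40 genes of 53715 mouse genes in the count table. They were chosen by symbol as known interferon-induced genes, with earlier results of these data known. The cerebella came from male C57BL/6 mice, 4 weeks old at purchase and called adult in the labels, that received either a low-Mn diet (0 ppm manganese, 3 libraries) or a normal-Mn diet (35 ppm, 3 libraries) for 2 weeks. No allele, transgene or other agent is named for either diet. The labels do not tie libraries to animals. The study's methods give 3 mice per diet as biological replicates, with RNA from 1 cerebellum each, whereas a figure legend speaks of technical triplicates, so all p-values given here rest on the spread among these 6 libraries, which may be technical. The normal-Mn columns of the table are named for their diet, whereas the low-Mn columns carry a number alone and were taken as low-Mn replicates 1, 2 and 3.

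Interferons are secreted alarm signals. Type I interferons (the alpha and beta forms) act through the IFNAR receptor and the kinases JAK1 and TYK2 on a complex that contains STAT2 and IRF9 and binds the interferon-stimulated response element (ISRE). Interferon-gamma, the product of Ifng and a signal of T cells and natural killer cells, acts through the IFNGR receptor, JAK1 and JAK2, and its early target genes carry the gamma-activated sequence (GAS). The induced genes encode antiviral effectors, GTPases that attack intracellular microbes, and the machinery that cuts, loads and displays peptides on MHC class I. In brain, microglia, endothelium and border macrophages respond readily, and a low level of interferon signalling is present without infection.

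The promoters below are those of members whose values are followed through the text, shown because they carry the letters of the ISRE or the GAS. Ifit1, Ifit3 and Isg15 encode antiviral proteins with ISRE letters only, Irf1 encodes a transcription factor with GAS letters only, and Igtp encodes an interferon-gamma-inducible GTPase with both. The sequences are RefSeq promoters of GRCm38.p6, from 250 bases before the start of transcription to 50 bases after it, written 5′ to 3′ on the strand of the gene, with ISRE or GAS letters in capitals. The windows are chr19:34640639-34640938 (Ifit1, plus strand), chr19:34583279-34583578 (Ifit3, plus strand), chr4:156200769-156201068 (Isg15, minus strand), chr11:53769764-53770063 (Irf1, plus strand) and chr11:58199306-58199605 (Igtp, plus strand).
Ifit1: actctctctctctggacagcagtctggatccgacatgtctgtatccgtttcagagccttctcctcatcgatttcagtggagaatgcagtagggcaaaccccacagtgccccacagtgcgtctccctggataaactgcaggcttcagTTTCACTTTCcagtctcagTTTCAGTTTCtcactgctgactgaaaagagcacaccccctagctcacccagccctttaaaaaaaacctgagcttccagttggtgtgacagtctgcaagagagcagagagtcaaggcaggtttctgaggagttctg
Ifit3: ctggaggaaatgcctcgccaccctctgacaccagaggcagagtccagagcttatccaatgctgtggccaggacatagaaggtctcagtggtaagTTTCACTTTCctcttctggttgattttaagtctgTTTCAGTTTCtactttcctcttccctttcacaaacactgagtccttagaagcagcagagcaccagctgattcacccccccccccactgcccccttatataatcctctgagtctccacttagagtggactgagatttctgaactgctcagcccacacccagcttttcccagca
Isg15: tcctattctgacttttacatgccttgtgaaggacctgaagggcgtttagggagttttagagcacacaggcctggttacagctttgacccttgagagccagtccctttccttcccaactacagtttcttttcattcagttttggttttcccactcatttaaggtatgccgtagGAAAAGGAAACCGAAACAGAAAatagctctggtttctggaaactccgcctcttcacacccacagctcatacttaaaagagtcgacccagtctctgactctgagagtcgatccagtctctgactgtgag
Irf1: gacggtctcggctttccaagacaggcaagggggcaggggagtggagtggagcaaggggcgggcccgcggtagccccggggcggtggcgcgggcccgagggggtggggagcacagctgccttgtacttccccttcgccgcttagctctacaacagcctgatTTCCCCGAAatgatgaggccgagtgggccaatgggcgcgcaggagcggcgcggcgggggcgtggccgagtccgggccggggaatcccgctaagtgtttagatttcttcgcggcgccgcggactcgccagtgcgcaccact
Igtp: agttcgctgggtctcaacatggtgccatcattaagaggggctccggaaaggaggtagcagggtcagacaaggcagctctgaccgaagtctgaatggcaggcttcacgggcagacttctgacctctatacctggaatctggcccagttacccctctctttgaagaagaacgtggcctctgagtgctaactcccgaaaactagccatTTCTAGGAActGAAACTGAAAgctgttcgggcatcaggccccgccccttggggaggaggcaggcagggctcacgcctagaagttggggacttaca

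The Ifit1 promoter held ISRE letters at 104 and 85 bases before the start, counted to the first base of the match. The Ifit3 promoter held them at 156 and 122 bases before the start. Isg15 held 3 overlapping matches, the nearest beginning 66 bases before the start. Irf1 held its GAS letters 90 bases before the start, and Igtp had GAS letters at 45 bases and ISRE letters at 34 bases before the start. A further RefSeq promoter of Irf1, not printed, held neither ISRE nor GAS letters. The ISRE letters searched were GAAA, 2 bases of any kind and GAAA, or TTTC, 2 bases of any kind and TTTC on the other strand. The GAS letters were TTC, 3 bases of any kind and GAA, which read alike on both strands. The patterns can overlap, as they did in Bst2 and Ifitm3. RefSeq promoters were at hand for 33 of the 40 members. ISRE letters were found in 17 of these 33 (51.5%), against 3.99% of 27025 genes with a promoter in the table. GAS letters were found in 10 of the 33 (30.3%), against 9.55% of all genes, and 6 members (18.2%) held both, against 0.614% of all genes. These matches describe the letters of the window and are not measured binding sites.

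**Figure D1:**
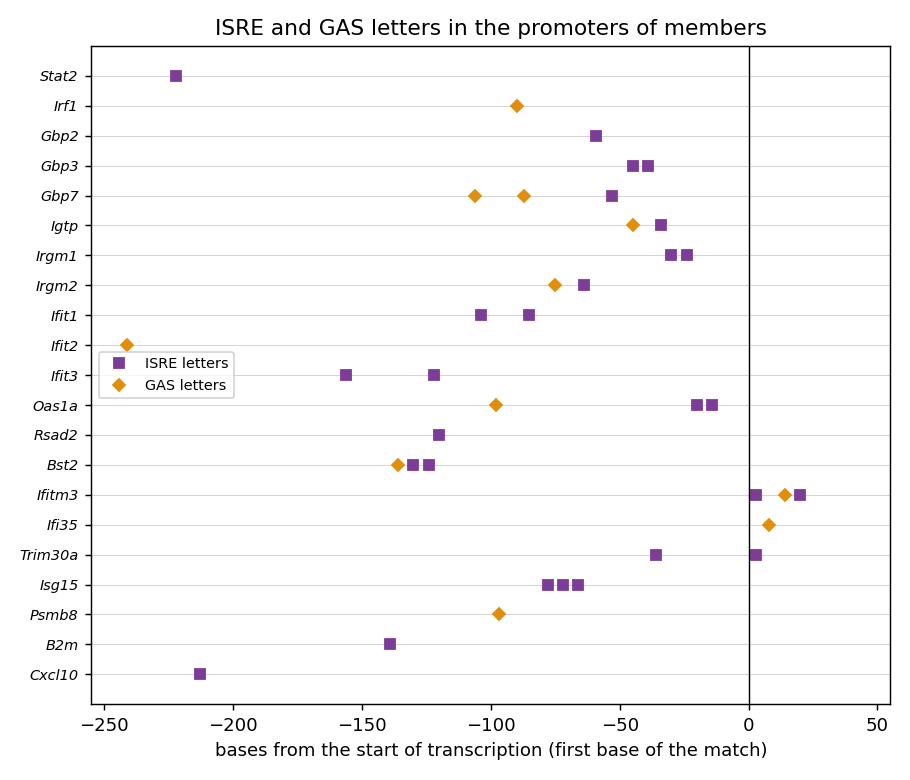
Positions of ISRE letters (purple squares) and GAS letters (orange diamonds) in the promoters of the members that held any, by distance in bases from the start of transcription (0, vertical line). Most matches lie before the start, and Isg15 shows 3 ISRE matches side by side.

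The libraries held between 14548336 and 21277469 estimated counts. The low-Mn libraries were the shallower ones, with at most 17124327 counts against at least 18446701 in normal-Mn libraries. Cerebellar neuron markers (Gabra6, Calb1, Pcp2 and others, 10 genes) were abundant in every library. Levels are given in CPM, the count of a gene relative to the total of its library after scaling by the trimmed mean of M values (TMM). Of the 40 members, 38 passed a filter on low counts and were tested for diet with edgeR's quasi-likelihood test on 16123 genes, with Benjamini-Hochberg adjustment and a threshold of 0.05. Since the cerebellum was measured in bulk, fewer cells of a type and less RNA per cell cannot be told apart.

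None of the 38 tested members was called by diet in edgeR's test, where 0.595% of all tested genes were called (0.416% higher and 0.18% lower on low-Mn). Without adjustment, 3 of the 38 members (Irf9, Ifit3 and Rtp4) had p under 0.05, against 12.1% of all genes. DESeq2 and limma-voom also called 0 members. Of the 10 members with the smallest p, DESeq2 by default gave no adjusted p for Irf9, Ifit3, Rtp4, Ifit1, Gbp7, Irgm1 and Psmb9. These could not be called there. Its independent filter works on the mean count, so other members with a mean count below that of Ifit3 could not be called there either. DESeq2 without independent filtering gave each of the members named here an adjusted p and called 0 members. The log2 fold change of low-Mn over normal-Mn was above 0 for 20 members and below 0 for 18, while 49.2% of all genes were above 0. The median log2 fold change was 0.013 over the members and -0.0025 over all genes. The 3 libraries of each diet were fully separated for 2 members, Irf9 and Rtp4, against 17.1% of all genes. In both, every low-Mn library was above every normal-Mn library, a direction that held for 8.79% of all genes.

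**Figure D2:**
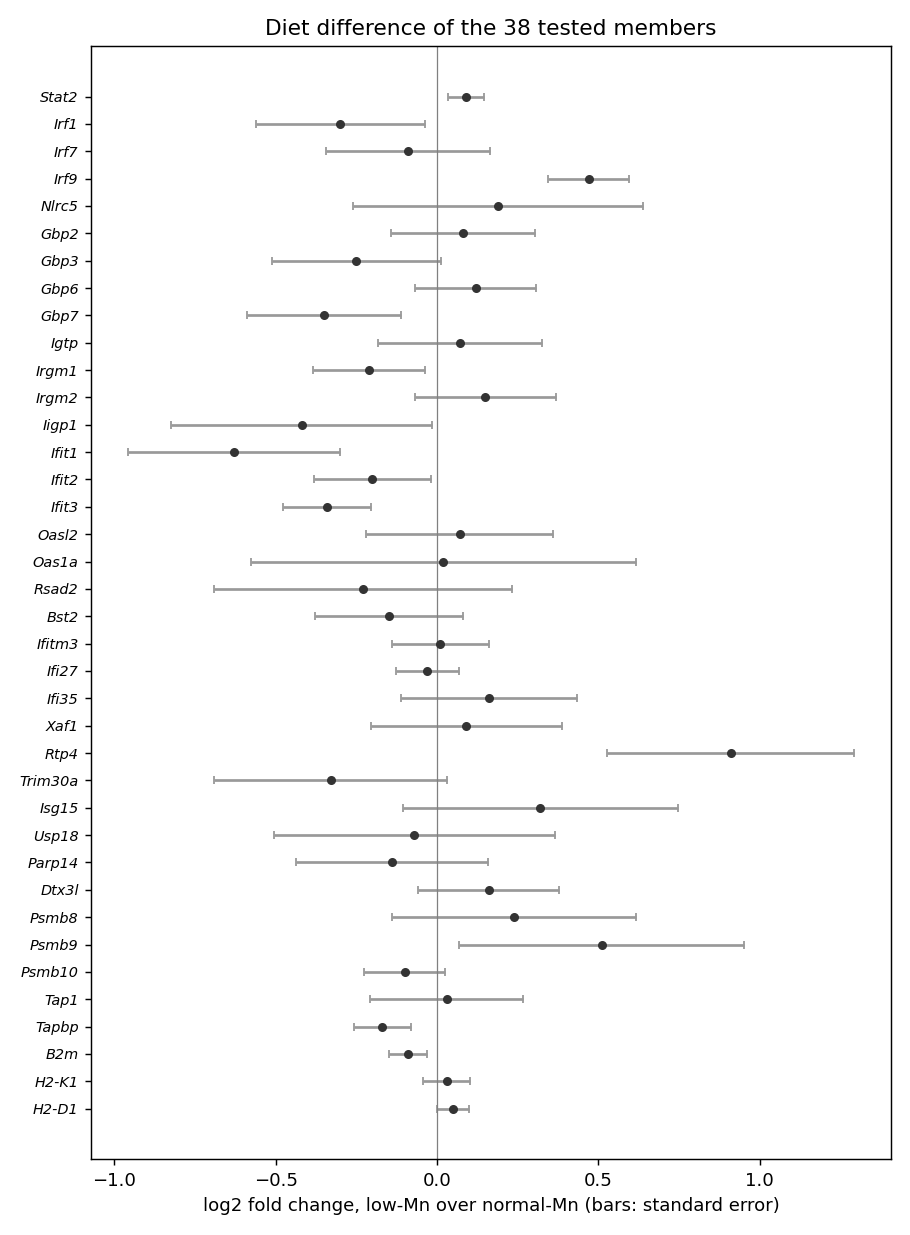
Log2 fold change of low-Mn over normal-Mn for each of the 38 tested members, with its standard error from edgeR as a bar. The values lie on both sides of 0, and Rtp4 (0.91) and Ifit1 (-0.63) are the farthest from it in each direction.

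Among the transcription factors, Irf9, which encodes the DNA-binding subunit of the type I interferon complex, had the smallest p of all members. Irf9 measured 16.5, 15.7 and 13.8 CPM in low-Mn replicates 1 to 3 and 12.9, 9.95 and 10.3 CPM in normal-Mn replicates 1 to 3. Each low-Mn library was above each normal-Mn library, with the closest pair being low-Mn replicate 3 and normal-Mn replicate 1. The log2 fold change was 0.47 (SE 0.125), with an edgeR adjusted p of 0.0969, which misses the threshold. The edgeR adjusted p fell to 0.0185 with no filter on low counts and to 0.0476 without normal-Mn replicate 1. Over 15 alternative settings it was at most 0.336 (edgeR without normal-Mn replicate 2), and DESeq2 by default gave none. Irf9 promoters (2 RefSeq starts) held neither set of letters.

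Stat2, which encodes its partner in that complex, measured 76, 85.8 and 83.1 CPM on low-Mn and 78.8, 77.7 and 73.7 CPM on normal-Mn, with overlapping diets and a log2 fold change of 0.09 (SE 0.0568). The difference in fold change between Irf9 and Stat2 was not tested. Irf1, an early target of interferon-gamma whose promoter with GAS letters is printed above, measured 2.15, 2.34 and 2.65 CPM on low-Mn and 2.76, 3.62 and 2.38 CPM on normal-Mn. Its diets overlapped, and normal-Mn replicate 2 was the highest library. Irf7, the amplifier of type I interferon production, lay between 2.28 and 3.25 CPM in all libraries. Nlrc5, the transactivator of MHC class I genes, rested on few reads, with 10, 20 and 10 counts on low-Mn and 16, 15 and 14 counts on normal-Mn.

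The antiviral effectors (13 genes) held the members with the next smallest p. Rtp4, which encodes an interferon-induced chaperone of membrane receptors, measured 2.09, 1.24 and 2.04 CPM on low-Mn and 1.17, 0.571 and 1.14 CPM on normal-Mn. The diets did not overlap, but the gap between 1.24 and 1.17 CPM was narrow and the counts were between 12 and 36 per library. Its log2 fold change was 0.91 (SE 0.383, edgeR adjusted p = 0.336).

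Ifit3 and Ifit1 encode proteins that bind viral RNA, and both had lower means on the low-Mn diet. Ifit3 measured 11.6, 15 and 13 CPM on low-Mn and 14.6, 14.9 and 20.7 CPM on normal-Mn (log2 fold change -0.34, SE 0.136, edgeR adjusted p = 0.306). The diets overlapped, since low-Mn replicate 2 was above normal-Mn replicates 1 and 2. Ifit3 shares 51.2% of its stretches of 50 bases with other genes, chiefly its near copy Ifit3b, so the split of reads between them is uncertain. Counted together, Ifit3 and Ifit3b measured 18.1, 20.7 and 19 CPM on low-Mn and 23.3, 22.4 and 28.3 CPM on normal-Mn, a sum chosen after their values were seen. For the sum the diets did not overlap, and the log2 fold change was -0.36 (SE 0.101) with an edgeR adjusted p of 0.117.

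Ifit1 measured 2.73, 2.2 and 2.16 CPM on low-Mn and 2.76, 2.14 and 6.23 CPM on normal-Mn. Its lower mean on low-Mn (log2 fold change -0.63, SE 0.329, edgeR adjusted p = 0.451) rested on normal-Mn replicate 3. Without that library it was -0.05, and over 14 alternative settings it ranged from -0.91 to -0.05. The neighbouring Ifit2 ranged from 4.4 to 6.94 CPM, again with its highest value in normal-Mn replicate 3. Among the more abundant effectors, Ifi27 measured 16.7, 17.2 and 19 CPM on low-Mn and 17.4, 19.1 and 17.3 CPM on normal-Mn. Ifitm3, which blocks viral entry, measured 6.97, 9 and 7.65 CPM on low-Mn and 8.47, 7.09 and 7.86 CPM on normal-Mn. The diets overlapped for both genes.

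Oas1a, which senses double-stranded RNA, had the widest log2 range of the tested members (2.03) and shares 57.6% of its sequence stretches with other genes. It measured 0.756, 0.137 and 0.617 CPM on low-Mn and 0.234, 0.905 and 0.379 CPM on normal-Mn, with the extremes in the replicates numbered 2. Rsad2 (viperin), which blocks viral replication, measured 0.814, 0.344 and 0.863 CPM on low-Mn and 1.08, 0.666 and 0.65 CPM on normal-Mn. Neither gene was ordered by diet. The effectors Oasl2, Bst2, Ifi35, Xaf1 and Trim30a had overlapping diets as well, with log2 fold changes between -0.33 (Trim30a) and 0.16 (Ifi35).

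None of the ISG15 and ADP-ribosylation genes (4 genes) was called by edgeR. The standard errors of their log2 fold changes were wide, from 0.218 (Dtx3l) to 0.436 (Usp18). Isg15, the ubiquitin-like modifier, measured 1.39, 1.86 and 1.11 CPM on low-Mn and 0.702, 0.762 and 2.06 CPM on normal-Mn. Normal-Mn replicate 3 was the highest and the other normal-Mn libraries were the lowest. Parp14, which encodes an ADP-ribosyltransferase, measured 2.44, 3.09 and 2.59 CPM on low-Mn and 2.15, 2.24 and 4.61 CPM on normal-Mn, an order like that of Isg15. Usp18, which removes ISG15 and restrains the type I receptor, measured 1.22, 0.412 and 1.36 CPM on low-Mn and 1.08, 0.762 and 1.35 CPM on normal-Mn, and Dtx3l, a ubiquitin ligase, lay between 3.9 and 7.22 CPM.

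The GTPases that attack intracellular microbes were present at low levels with overlapping diets. Gbp2, a guanylate-binding protein induced strongly by interferon-gamma, measured 3.95, 3.23 and 3.33 CPM on low-Mn and 3.0, 3.33 and 3.63 CPM on normal-Mn. Gbp7 measured 2.91, 3.44 and 2.96 CPM on low-Mn and 4.87, 2.86 and 4.12 CPM on normal-Mn (log2 fold change -0.35, edgeR adjusted p = 0.606). Igtp measured 2.67, 2.75 and 3.39 CPM on low-Mn and 2.39, 3.43 and 2.55 CPM on normal-Mn, a range with no order by diet. Irgm1, which regulates the other immunity-related GTPases, measured 5.17, 4.81 and 5.74 CPM on low-Mn and 5.52, 6.05 and 6.61 CPM on normal-Mn (log2 fold change -0.21, SE 0.173, edgeR adjusted p = 0.695). Iigp1, another of these GTPases, measured 1.57, 0.893 and 1.11 CPM on low-Mn and 1.45, 0.905 and 2.49 CPM on normal-Mn.

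The MHC class I genes were among the most abundant members and moved little between libraries. H2-D1, a classical MHC class I heavy chain, measured 159, 171 and 152 CPM on low-Mn and 151, 160 and 155 CPM on normal-Mn (log2 fold change 0.05, SE 0.0499). H2-K1, the other heavy chain, measured 29.6, 28.6 and 29 CPM on low-Mn and 28.3, 28.4 and 28.6 CPM on normal-Mn. B2m, the light chain of MHC class I, measured 62.2, 57.5 and 64.0 CPM on low-Mn and 63.7, 68.0 and 64.5 CPM on normal-Mn (log2 fold change -0.09, SE 0.0586, edgeR adjusted p = 0.552). Per kilobase of transcript, B2m (73.6 CPM per kilobase) and H2-D1 (61.2) had the highest levels of all members, followed by Stat2 (13.4), Ifi27 (12.1), Ifitm3 (11.6), H2-K1 (9.79), Ifit3 (8.56) and Tapbp (8.41).

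No gene of peptide loading or the immunoproteasome was called by edgeR either. Tapbp (tapasin), which holds MHC class I at the peptide transporter, measured 30.1, 29.5 and 26.5 CPM on low-Mn and 32.6, 36.1 and 28.2 CPM on normal-Mn (log2 fold change -0.17, SE 0.0887, edgeR adjusted p = 0.442). Tap1, a subunit of that transporter, stayed between 2.68 and 3.14 CPM. Psmb10, an inducible proteasome subunit, lay between 11.3 and 14.8 CPM. The other inducible subunits were scarcer and more variable: Psmb8 measured 1.92, 2.82 and 1.79 CPM on low-Mn and 2.67, 0.714 and 2.11 CPM on normal-Mn. Psmb9 measured 1.92, 0.687 and 1.36 CPM on low-Mn and 0.608, 1.48 and 0.705 CPM on normal-Mn, and the ranges overlapped (log2 fold change 0.51, SE 0.442, edgeR adjusted p = 0.703). The chemokines Cxcl9 and Cxcl10, which attract T cells, did not pass the filter. Cxcl9 had 0, 1 and 0 counts on low-Mn and 0, 1 and 1 counts on normal-Mn, and Cxcl10 had 5, 6 and 1 counts on low-Mn and 4, 9 and 1 counts on normal-Mn.

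**Figure D3:**
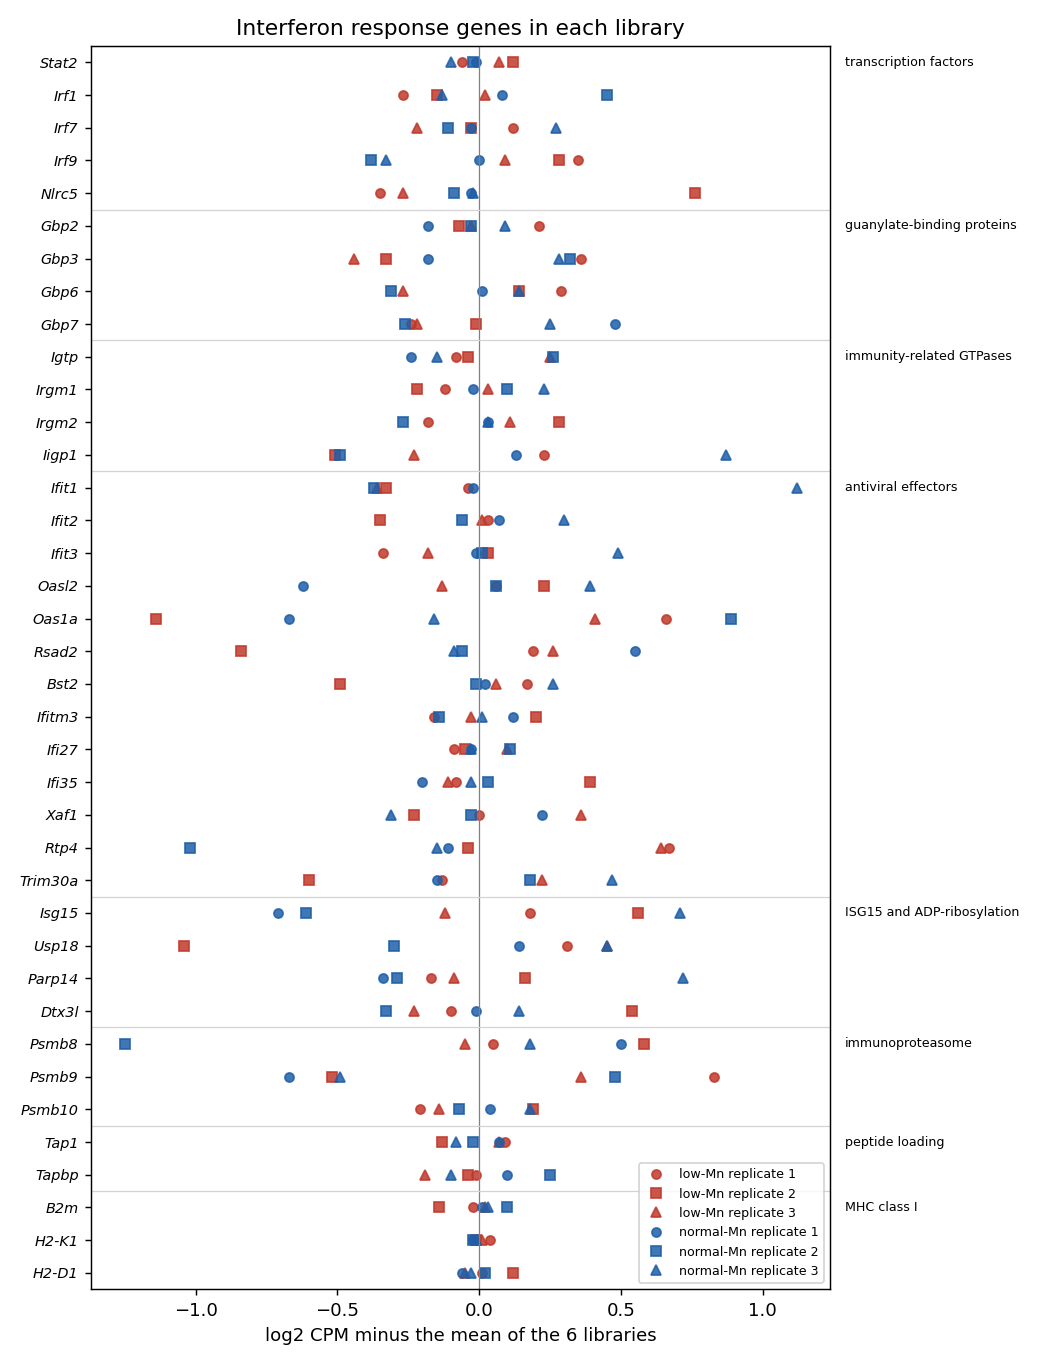
Log2 CPM (prior count 2) of each tested member minus its mean over the 6 libraries, for low-Mn (red) and normal-Mn (blue) replicates 1 (circles), 2 (squares) and 3 (triangles), grouped by role. The MHC class I genes lie within a narrow band around 0, and normal-Mn replicate 3 is the rightmost point for Ifit1, Iigp1 and Parp14.

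The libraries were next compared one by one against their own Ifng counts, to ask whether libraries with Ifng transcripts carried an interferon response. Ifng had 0 counts in each low-Mn library, which allows up to 0.175, 0.206 and 0.184 CPM, here taken per library total without TMM scaling (3 counts each, counting error only). It had 2, 215 and 144 counts in normal-Mn replicates 1, 2 and 3. The last of these correspond to 10.1 CPM (95% exact Clopper-Pearson interval 8.8 to 11.5) and 7.81 CPM (6.58 to 9.19). Ifng shares 19.9% of its stretches of 50 bases with other genes, chiefly Gm49751. Its counts are uncertain to that extent, which the intervals do not cover. Of the 21 interferon genes examined, 18 had no count in any library, among them the Ifna genes and Ifnb1. Ifng reached too few libraries to pass the filter and was not among the 16123 genes tested. It entered edgeR's test in 5 alternatives (no filter, or 1 library left out) and was called lower on low-Mn in 4 of them. It was not called by edgeR without low-Mn replicate 2 (adjusted p = 0.0506) or by DESeq2 without independent filtering (adjusted p = 0.0814). With 1 library left out, Ifng passed the filter only through its counts in normal-Mn replicates 2 and 3. These calls are therefore no separate support for a diet difference. The 23 lymphocyte markers, which mark the T cells and natural killer cells that make Ifng among others, summed to 6.33, 3.16 and 6.41 CPM on low-Mn and 6.22, 6.33 and 5.96 CPM on normal-Mn. The libraries with high Ifng counts were not above the others in this sum. The T cell receptor complex genes Cd3d and Cd3e had 0 and 1 counts in normal-Mn replicate 2 and 0 and 2 counts in normal-Mn replicate 3.

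The members as a whole were not raised in both libraries with high Ifng counts. The median over the 38 members of log2 CPM minus the mean of the 6 libraries was 0.003, -0.039 and -0.008 in low-Mn replicates 1 to 3 and -0.012, -0.028 and 0.062 in normal-Mn replicates 1 to 3. Normal-Mn replicate 2, with the most Ifng counts, had a lower median than normal-Mn replicate 1, with 2 Ifng counts. The same median over all tested genes was between 0.003 and 0.006 in every library. The summed level of the members was 498, 518 and 493 CPM on low-Mn and 494, 504 and 509 CPM on normal-Mn, with overlapping diets. Normal-Mn replicate 3 held the highest level of 11 of the 38 members and the lowest of 2. Of all tested genes, 16.2% had their highest and 16% their lowest level in this replicate. Normal-Mn replicate 2 held the highest level of 6 members and the lowest of 8, where 19.5% of all genes had their highest and 19.5% their lowest level there. A list of 60 other interferon-induced genes, 43 of them tested, was placed otherwise. Its median deviation was -0.039, -0.146 and 0.013 in low-Mn replicates 1 to 3 and 0.026, 0.057 and 0.126 in normal-Mn replicates 1 to 3. Of these 43 genes, 18 were highest in normal-Mn replicate 3. In normal-Mn replicate 2, 6 were highest and 7 lowest. A relation to the Ifng counts was not tested.

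**Figure D4:**
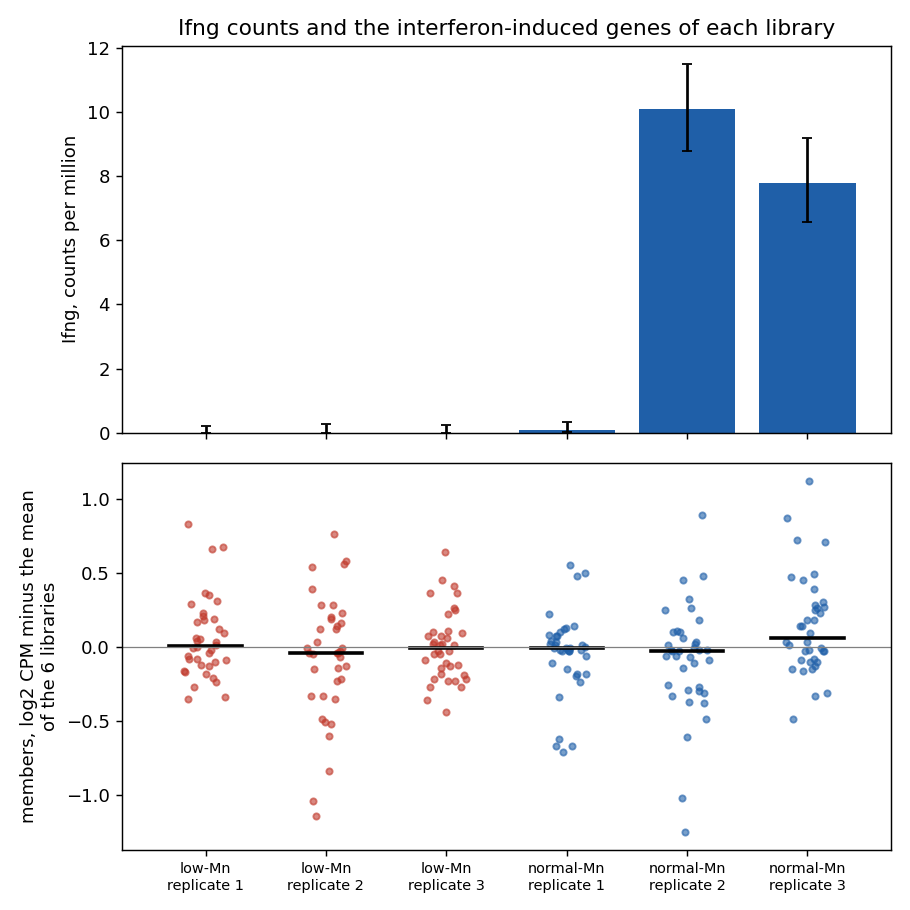
Upper panel, Ifng counts as CPM of the library total with 95% exact Clopper-Pearson intervals. Lower panel, log2 CPM minus the mean of the 6 libraries for the 38 tested members (points, one per gene) with their median (black bar), which is 0.062 in normal-Mn replicate 3 and -0.028 in normal-Mn replicate 2.

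By role, the members most closely tied to interferon-gamma were not the highest in both libraries with high Ifng counts. The median deviation of the MHC class I genes was 0.020 in normal-Mn replicate 2 and -0.007 in normal-Mn replicate 3, and between -0.024 and 0.015 in the other libraries. For the guanylate-binding proteins it was -0.146 and 0.193 in these libraries, with 0.248 in low-Mn replicate 1, where Ifng had no count. For the immunoproteasome it was -0.067 and 0.179, against 0.187 in low-Mn replicate 2. For the immunity-related GTPases it was -0.085 and 0.131, the latter the highest of the 6 libraries, against -0.100, -0.132 and 0.069 on low-Mn and 0.001 in normal-Mn replicate 1. Single members went both ways: Irf1 was highest in normal-Mn replicate 2, and Psmb8 was lowest there. Outside the members, the 8 tested class II presentation genes had a median deviation of 0.284 in normal-Mn replicate 2, the highest of the 6 libraries. It was -0.008 in normal-Mn replicate 3, 0.158 in normal-Mn replicate 1 and -0.053, -0.073 and -0.065 on low-Mn. In normal-Mn replicate 2, 5 of these 8 genes were highest and 0 lowest. A relation of this list to the Ifng counts was not tested.

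A small set of members was high in normal-Mn replicate 3 alone. Ifit1 was 1.14 on the log2 scale (2.21-fold) above the next library, Iigp1 0.63 and Parp14 0.56. Ifit3 (0.46 above the next), Trim30a (0.25), Ifit2 (0.23), Irf7 (0.16), Oasl2 (0.16), Isg15 (0.14), Irgm1 (0.13) and Bst2 (0.09) were also highest there by smaller steps. Of the 38 members, 3 (7.89%) exceeded every other library by at least 0.5 on the log2 scale in this replicate. Over all genes the share was 0.471%, which was not matched for count level. The 3 genes rest on few reads, with 32 to 115 counts for Ifit1, 13 to 46 for Iigp1 and 42 to 85 for Parp14. Both the library and the step were chosen after the values were seen. Among the 43 tested of the 60 other interferon-induced genes, 5 (11.6%) exceeded the other libraries by this step: Ifi47, Tgtp2, Ifi27l2a, Trim21 and Trim34a. No tested gene of the receptor, sensor, antigen presentation or cell type lists did, although few lymphocyte (2 of 23) and neutrophil (1 of 9) markers were tested. Tgtp2 shares 86.6% of its stretches of 50 bases with other genes, chiefly Tgtp1, and Trim34a 59.7%, chiefly Trim34b. Their counts are uncertain to that extent. Mx1, also on the list of other interferon-induced genes, was not tested and had 1, 0 and 0 counts on low-Mn and 1, 3 and 13 counts on normal-Mn. This pattern describes 1 library and has no replicate.

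The receptors and signalling genes that precede these targets were present in all libraries. Ifnar1 lay between 47.0 and 50.1 CPM and Ifnar2 between 14.7 and 19.4 CPM. Ifngr1 measured 11.1 to 14.7 CPM and Ifngr2 32.4 to 37.7 CPM. Of the 14 tested receptor and kinase genes, 0 were called by edgeR and 0 had an unadjusted p under 0.05, with a median log2 fold change of -0.052. Socs1, a feedback inhibitor induced by interferon-gamma, lay between 0.925 and 2.54 CPM and was highest in low-Mn replicate 2. Of the 16 tested nucleic acid sensor genes, 0 were called by edgeR and 2 had an unadjusted p under 0.05, against 12.1% of all genes. Ticam1, the adaptor of TLR3, measured 5.87, 5.57 and 5.12 CPM on low-Mn and 7.82, 8.14 and 7.26 CPM on normal-Mn (log2 fold change -0.49, SE 0.156, edgeR adjusted p = 0.188). Tbk1, the kinase that activates IRF3, measured 42.7, 42.8 and 42.1 CPM on low-Mn and 38.5, 38.3 and 37.8 CPM on normal-Mn (log2 fold change 0.16, SE 0.0632, edgeR adjusted p = 0.317). The diets did not overlap for either gene, and the directions were opposite. Full separation held for 3 of the 16 sensor genes (1 with low-Mn above and 2 with low-Mn below), against 17.1% of all genes.

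Among the other interferon-induced genes, 0 of 43 were called by edgeR and 6 had an unadjusted p under 0.05, against 12.1% of all genes. Their log2 fold changes were below 0 for 32 of 43 and above 0 for 11, where 49.2% of all genes were above 0. The median was -0.124. The low-Mn libraries were all below the normal-Mn libraries for 10 (8.32% of all genes) and all above for 1 (8.79% of all genes). Ifit3b measured 6.45, 5.7 and 6.04 CPM on low-Mn and 8.75, 7.52 and 7.59 CPM on normal-Mn (log2 fold change -0.39, SE 0.153, edgeR adjusted p = 0.299). Sp100, a nuclear body protein, was the gene above, at 3.25, 2.82 and 3.08 CPM on low-Mn and 1.83, 1.71 and 2.33 CPM on normal-Mn (log2 fold change 0.65, edgeR adjusted p = 0.317). The 18 other class I presentation genes had a median log2 fold change of -0.008, and 0 were called or had an unadjusted p under 0.05.

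The 8 tested class II presentation genes, which microglia and border macrophages can express, all had log2 fold changes below 0 (median -0.246). Of all genes, 49.2% were above 0. By edgeR 0 of the class II genes were called and 1 had an unadjusted p under 0.05, against 12.1% of all genes. H2-Eb1 measured 2.38, 1.99 and 1.36 CPM on low-Mn and 2.43, 3.38 and 3.31 CPM on normal-Mn (log2 fold change -0.66, SE 0.283, edgeR adjusted p = 0.34). H2-Aa measured 2.03, 1.72 and 2.28 CPM on low-Mn and 2.95, 2.71 and 2.82 CPM on normal-Mn (log2 fold change -0.49, edgeR adjusted p = 0.473). Neither gene had overlapping diets, but the gap for H2-Eb1 between 2.38 and 2.43 CPM was narrow. Low-Mn was fully below normal-Mn for 2 of the 8 genes, against 8.32% of all genes.

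DESeq2 and limma-voom called 0 genes of the receptor, sensor, other interferon-induced, class I and class II lists. By default DESeq2 could not call genes of any list with a mean count below that of Ifit3, as given above for the members.

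Markers of the cells that could carry these transcripts were set beside them. No microglia, border macrophage or endothelial marker tested was called by diet in edgeR's test or in any of the 15 alternatives run. The 20 microglia markers summed to 215 to 229 CPM on low-Mn and 240 to 255 CPM on normal-Mn. Of these, 18 had log2 fold changes below 0 and 2 above (median -0.187), where 49.2% of all genes were above 0. By edgeR 4 had an unadjusted p under 0.05, against 12.1% of all genes. Every low-Mn library was below every normal-Mn library for 5 of the 20, against 8.32% of all genes. Csf1r measured 30.6, 30.8 and 29.2 CPM on low-Mn and 35.1, 34.5 and 35.4 CPM on normal-Mn (log2 fold change -0.21, edgeR adjusted p = 0.201). Border macrophage markers summed to 17.2 to 24.3 CPM on low-Mn and 22.9 to 25.6 CPM on normal-Mn, and endothelial markers to 403 to 427 and 402 to 423 CPM. Meninges markers summed to 331 to 386 and 403 to 450 CPM, and edgeR called 1 of 12 (Igf2) lower on low-Mn. That call was lost with limma-voom and when any library other than normal-Mn replicate 3 was left out, and 3 were called with no filter. Choroid plexus markers summed to 3529 to 4364 and 4163 to 5030 CPM, and edgeR called 2 of 12 (Kl and Sostdc1) lower on low-Mn. Kl was called in all 15 alternatives, while the count was 1 with limma-voom, with DESeq2 without independent filtering, and without low-Mn replicate 2 or 3 or normal-Mn replicate 1 or 2, 4 without normal-Mn replicate 3 and 7 with no filter. The part of these differences in the levels of the interferon-induced and class II genes was not tested. Across libraries, the microglia markers had a median deviation of 0.122 in normal-Mn replicate 2 and 0.145 in normal-Mn replicate 3, whereas the members differed between these replicates as given above.

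**Figure D5:**
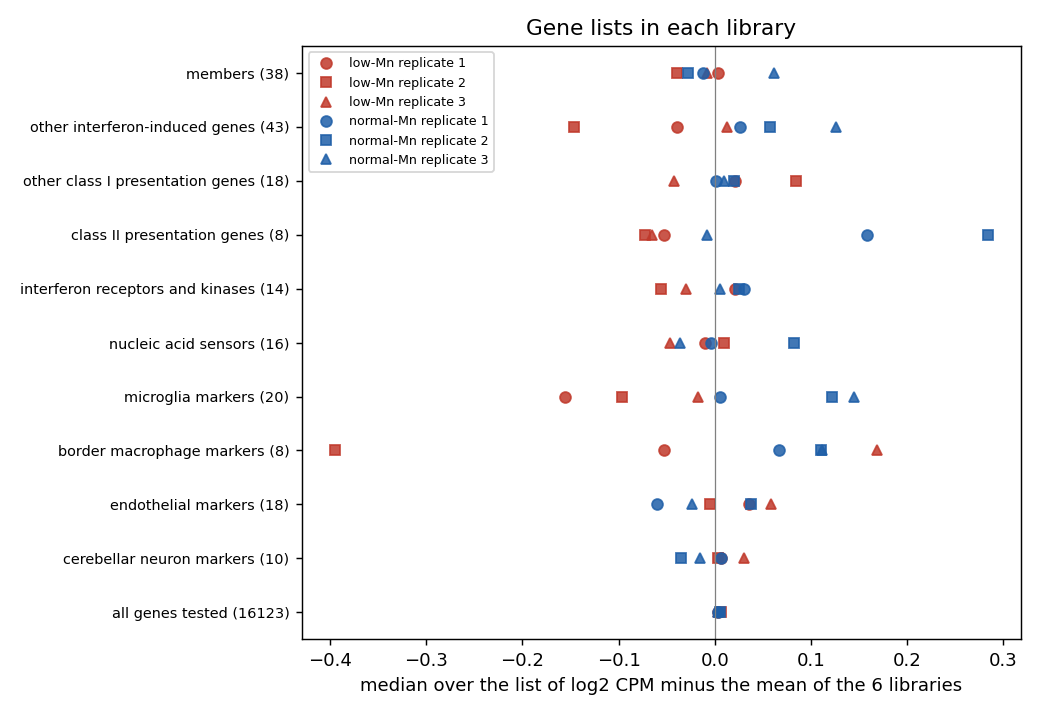
Median over each gene list (number of tested genes in parentheses) of log2 CPM minus the mean of the 6 libraries, for low-Mn (red) and normal-Mn (blue) replicates 1 (circles), 2 (squares) and 3 (triangles). The members lie close to 0 in all libraries, and the microglia markers lie lower in the low-Mn than in the normal-Mn libraries.

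Reads of close relatives limit several of these values. At least 10% of the stretches of 50 bases occurred in another gene for 11 of the 38 tested members, led by Gbp6 (70.7%), Oas1a and Ifit3. H2-D1 (12.8%) and Tapbp (23.2%) belong to this set, and their counts are uncertain to that extent. Over the other 27 members the median log2 fold change was -0.069, and the median deviation in normal-Mn replicate 3 was 0.143.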

How the data were processed

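The authors aligned the reads with STAR to mm10 and estimated expected counts per gene with RSEM (both named in the submitters' processing notes, with no version), and deposited 1 table of expected counts, unnormalised, with 1 column per library; all 6 columns were used. Of its 53715 mouse gene IDs, 53620 matched GENCODE M21 without the version suffix, all members among them; 92 spike-in entries stood at 0 and were left out. The deposited expected counts were rounded to whole numbers. The diets were compared with edgeR 4.0.16 (TMM, filterByExpr with a minimum count of 10, quasi-likelihood test, no covariate, Benjamini-Hochberg over 16123 genes, threshold 0.05), tested on simulated data first. DESeq2 1.42.0, limma-voom (limma 3.58.1), other scalings and filters, a replicate block and leaving out each library were alternatives. Deviations use log2 CPM with a prior count of 2. Replicate pairs differed by more than sampling noise (chi-square per degree of freedom 3.63 to 7.6). Totals of 14548336 to 21277469 counts set the precision, and intervals and floors cover counting error only. Sequence sharing was counted over stretches of 50 bases of the M21 transcripts, and promoters came from RefSeq.

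The members and gene lists were chosen with earlier results of these data known, so no list was tested as a set. All members could be named. Library values are given for the 10 tested members with the smallest p, the 8 with the highest CPM per kilobase, the 8 with the widest log2 range and those that failed the filter, and for others after their values were seen.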

Additional observations from a re-analysis of the deposited data

How the results depend on the processing

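Across all genes edgeR called 96 genes by diet, 424 with no filter on low counts, 63 with limma-voom and 37 to 93 when 1 library was left out (37 without low-Mn replicate 2, 45 without normal-Mn replicate 2 and 47 without low-Mn replicate 1). Members called numbered 0, except for 1 (Irf9) with no filter and without normal-Mn replicate 1, so the range over left-out libraries was 0 to 1. The numbers did not pair the libraries, since correlations of same-numbered deviations were 0.0297, -0.0238 and 0.0361. With a replicate block 128 genes and 0 members were called. The median log2 fold change of the members, 0.013, was -0.049 (without low-Mn replicate 3) to 0.020 with 1 library left out and -0.069 over members sharing under 10% of their sequence, so its sign is not fixed. With an average of at least 100 counts per gene (13 members), the library medians were -0.022 in low-Mn replicate 1, 0.027 in low-Mn replicate 2 and 0.009 in normal-Mn replicate 3, and low-Mn replicate 3 and normal-Mn replicate 1 were highest for 0% of members each. Over members sharing under 10%, the medians were 0.032, -0.128 and 0.017 in low-Mn replicates 1 to 3 and 0.143 in normal-Mn replicate 3. Upper quartile scaling left low-Mn replicate 3 highest for 2.63% of members, against 5.26%. The cause was not tested. The 10 members with the smallest p kept their direction under every alternative run, and among them Irf9 alone changed its call. Members under about 2 CPM rest on few counts.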
